A study of Homo sapiens with 6 samples.

Results

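The genes described here are 42 genes of the actin, tubulin and intermediate filament cytoskeleton, taken by symbol from a count table of 60671 human gene IDs. The rule names the genes and uses no measured value, but the set was proposed with earlier results of these data known. It holds 27 genes of the actin side (both cytoplasmic actins, the Arp2/3 complex, monomer-binding, cross-linking and tropomyosin genes and non-muscle myosin II), 12 genes of the tubulin side (alpha, beta and gamma tubulin and stathmin) and 3 intermediate filament genes. All 42 were present and all 42 passed the filter on low counts.

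The 6 libraries hold RNA recovered with an antibody against the myc tag from HEK cells, which descend from human embryonic kidney, after calcium phosphate transfection. Their source names refer to RNA bound by SYNJ2BP, a tail-anchored protein of the outer mitochondrial membrane, or by its AAA mutant. The control group has 3 libraries whose column names carry WT.Control and whose treatment field reads untreated, and the mutant group has 3 libraries whose column names carry AAA.mito. Which residues the mutation replaces, what "mito" stands for and which construct the control cells received is not stated in the labels. The series concerns the transport of Pink1 mRNA on neuronal mitochondria through Synaptojanin 2, a lipid phosphatase that binds both SYNJ2BP and RNA. The comparison asks which RNAs are recovered in other amounts when the mutant is precipitated. Gene counts do not separate a wild-type transcript from a mutant one, and input RNA was not analysed here.

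Actin filaments grow from monomers of beta and gamma actin, are branched by the Arp2/3 complex, are bundled by cross-linkers and are pulled by myosin II. Microtubules are built from dimers of alpha and beta tubulin and start at rings of gamma tubulin, and in neurons they are the tracks on which mitochondria travel. Cells also adjust tubulin mRNA to the pool of free dimers: ribosomes that have just made the first residues of a tubulin chain are recognised, and the mRNA they translate is degraded. Beta actin mRNA is a standard example of an mRNA carried to its site of translation.

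The tubulin genes are shown by the start of their coding sequence, which encodes the first residues that this autoregulation recognises. It also shows how alike the mRNAs are that the counting had to separate. Each line gives the first 30 coding bases, 5′ to 3′, from GENCODE 29 transcripts on GRCh38, with the first 4 codons in capitals.
TUBA1A: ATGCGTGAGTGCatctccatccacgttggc
TUBA1B: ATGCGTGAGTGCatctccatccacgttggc
TUBA1C: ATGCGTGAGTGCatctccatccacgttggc
TUBA4A: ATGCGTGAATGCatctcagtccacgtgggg
TUBB: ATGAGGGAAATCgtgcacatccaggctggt
TUBB2A: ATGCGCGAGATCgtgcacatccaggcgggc
TUBB2B: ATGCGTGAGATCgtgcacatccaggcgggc
TUBB3: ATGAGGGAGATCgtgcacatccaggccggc
TUBB4B: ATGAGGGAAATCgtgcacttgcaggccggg
TUBB6: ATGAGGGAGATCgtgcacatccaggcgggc

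TUBA1A (chromosome 12, 49184796 to 49189324), TUBA1B, TUBA4A, TUBB2A (chromosome 6, 3153669 to 3157526) and TUBB2B (chromosome 6, 3224261 to 3231730) lie on the minus strand and the other genes shown on the plus strand. The 4 alpha tubulin genes differed at 5 of these 30 positions and had 2 different versions of the first 4 codons. The 6 beta tubulin genes differed at 7 of the 30 positions and had 4 different versions of those codons. Within each family all versions of the first 4 codons encode the same residues, so these differences are synonymous.

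The coding sequences of TUBA1A and TUBA1B were 97.2% identical and those of TUBB2A and TUBB2B 98.1%, against 84.4% for TUBB and TUBB4B. Of the stretches of 50 bases in the principal transcript of each gene (APPRIS, longest coding sequence), 89.4% in TUBB3, 65.5% in TUBB2A, 62.7% in TUBA1B, 52.2% in TUBB2B and 41.1% in TUBA1A also occurred in a transcript of another gene, for TUBB3 all of them in 1 gene whose span overlaps it. The labels do not say how reads that match several genes were counted, so values of the single tubulin genes are uncertain between such copies. The corresponding share was 32.7% for KRT8, 31.8% for KRT18, 10.3% for ACTB and 9.33% for TAGLN2. It was 0.613% for MYH9 and 0 for MYH10, TAGLN and VIM.

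The libraries differed in background far more by replicate number than by group, and in depth mainly between replicate 3 and the others. Totals were 15010016, 11067938 and 61912640 counts in control and 7347998, 3287218 and 73331652 in mutant replicates 1, 2 and 3. Both replicate 3 libraries were the deepest, and in replicates 1 and 2 the mutant library was the shallower one. A background density was read from 386 olfactory receptor genes, taken as little transcribed in these cells, by dividing their counts by the length of their spans. A gene's level is also given as a multiple of the count that this density predicts for its span. Background made up 6.66% to 7.54% of nuclear gene counts in the replicate 3 libraries, 38.1% and 55.8% in control and mutant replicate 1, and 81.7% to 84.4% in replicate 2. Of the 5 markers set for HEK cells, VIM, NEFM and KRT18 lay far above background, KRT8 reached 8.18 times background in control replicate 3, and PAX2 stayed between 0.907 and 4.29 times. Blood, hepatocyte and skeletal muscle markers lay between 0 and 2.79 times background in every library, and of the neuron and fibroblast markers SYT1 reached 13.8 times in mutant replicate 3 and COL1A1 17.2 times.

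In this setting the cytoskeletal genes were clearly detected in both replicate 3 libraries and hardly at all in replicate 2. The median gene of the 42 stood at 11.5, 1.85 and 76.9 times background in control replicates 1, 2 and 3 and at 5.26, 1.64 and 46.7 times in mutant replicates 1, 2 and 3. In mutant replicate 2, 26 of the 42 genes had less than 2 times background, and in control replicate 2 there were 25. A gene is called far above background where its average over the 6 libraries, on the log scale, exceeded 8 times background. This held for 24 of the 42 genes, 16 on the actin side, 6 on the tubulin side and 2 intermediate filament genes. TUBB2B at 7.60 times lay just below that threshold and ARPC3 at 8.22 times just above it. TUBA4A was nearest to background at 1.87 times and TUBA1B farthest from it at 120.3 times.

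**Figure D1:**
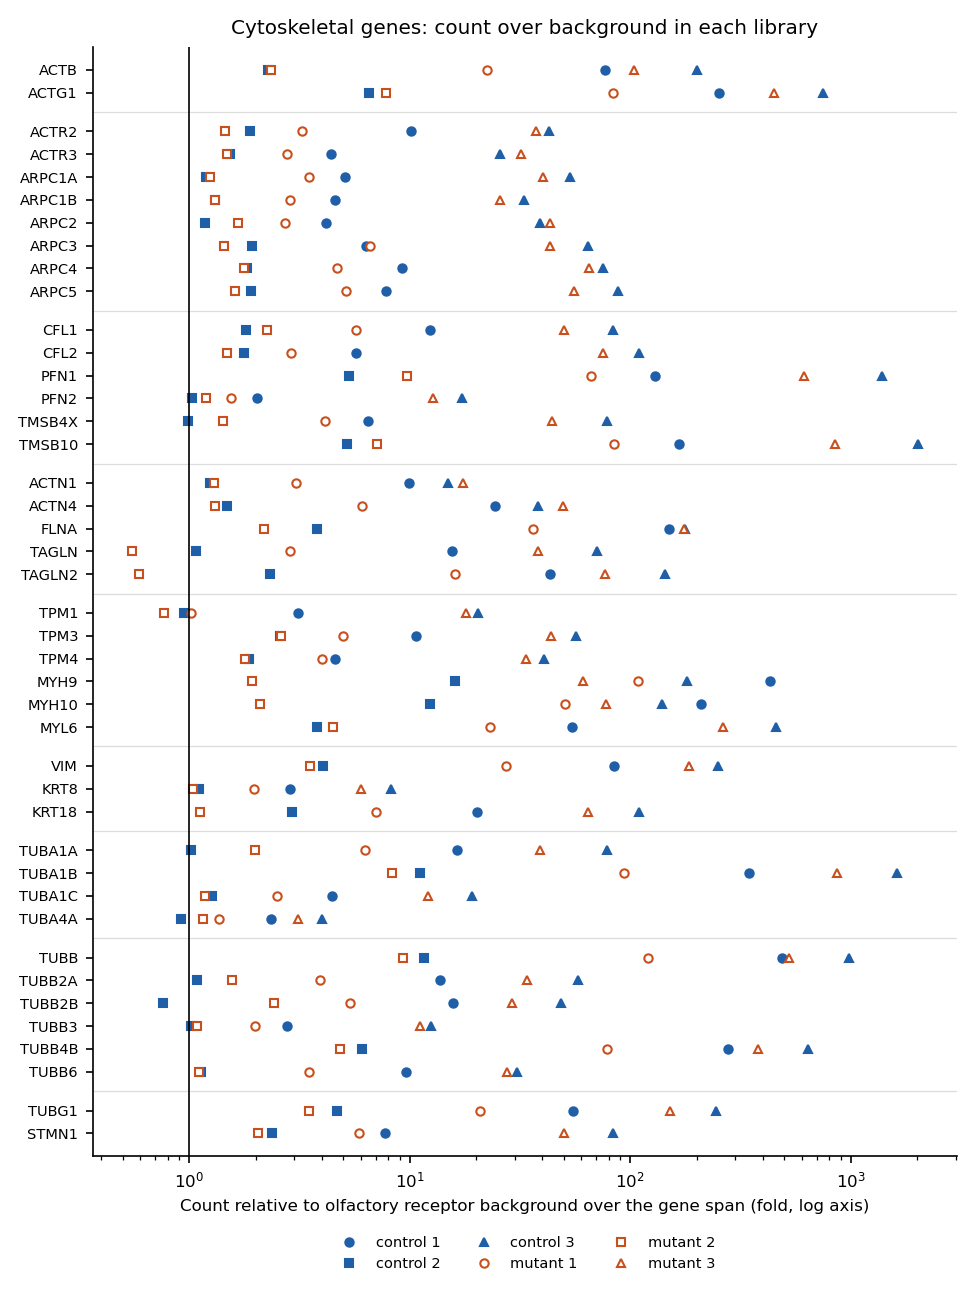
Count of each of the 42 genes divided by the count predicted from olfactory receptor background over its gene span (log axis, fold), in each of the 6 libraries; filled blue marks are control and open orange marks mutant libraries, and circle, square and triangle stand for replicates 1, 2 and 3. Squares crowd near 1 for most genes, and a triangle lies farthest to the right for every gene but MYH9 and MYH10, whose highest mark is control replicate 1.

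In edgeR with TMM scaling, the low-count filter and all 6 libraries, all 42 genes had a negative log2 fold change, mutant against control. That held for the counts as deposited, with and without a block for replicate number. Without the filter 40 were negative, or 41 with the block, and limma-voom had 41. With background subtracted and the block, 35 of 42 were negative. With factors from genes far above background and the block, 29 of 42 were negative. With 1 library left out and no block, between 24 (without control replicate 3) and 42 (without control replicate 2) were negative. No gene passed the test without pairing. That test (edgeR's quasi-likelihood test with Benjamini-Hochberg adjustment over 33375 genes, threshold 0.05) called 0 members, and 0% of all tested genes. At an unadjusted p under 0.05 it had 25 genes, DESeq2 70 and limma-voom 2, none of them a cytoskeletal gene in any of the 3 tools. The smallest adjusted p among the members was 1. Nothing in the labels says that replicates were separate cultures. P-values here therefore reflect the spread among libraries, part of which may be technical. Fewer cells carrying the tagged protein and less RNA recovered per cell cannot be told apart in these counts.

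Libraries with the same replicate number deviated together from their group means, and with the number as a block edgeR called 5 cytoskeletal genes, all lower in the mutant. They were TAGLN and TAGLN2 (the actin-bundling transgelins), KRT18 (a keratin), TUBB4B (a beta tubulin) and TUBG1 (gamma tubulin). Without the block their log2 fold changes (± SE) were −1.48 ± 1.03, −1.23 ± 1.11, −1.14 ± 0.92, −1.34 ± 1.16 and −1.02 ± 0.93 in that order, and none was called. The 5 of 42 stand beside 1.4% of all tested genes called lower. Among tested genes far above background, 8.49% were called lower, and 4 of the 24 such members were. No member was called higher. The block's calls depended on the scaling: with factors taken from the genes far above background no member was called.

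The direction was shared in pairs 1 and 3 but not in pair 2. CPM are counts scaled to a common library size with TMM factors, and each pair difference subtracts the log2 CPM of a control library from that of the equally numbered mutant library. It was negative for 41 of the 42 genes in pair 1, 27 in pair 2 and 40 in pair 3, with medians of −1.14, −0.10 and −0.90. Tested genes far above background had the same pattern, with pair medians of −0.82, 0 and −0.64. Over all tested genes the pair medians were −0.09, −0.02 and −0.13. All 3 pairs were negative for 24 members, where 18.2% of all tested genes and 39.3% of those far above background were. Of the 24 members far above background, 16 were lower in all 3 pairs. The median log2 fold change with the block was −0.64 over the 42 genes, −0.84 over the 24 far above background and −0.47 over the other 18. Over all tested genes it was −0.08, and over the 4391 tested genes far above background −0.51, of which 88.5% were negative. With scaling factors from those genes the members' median became −0.14, with 29 of 42 negative, while the median of all tested genes became 0.40.

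**Figure D2:**
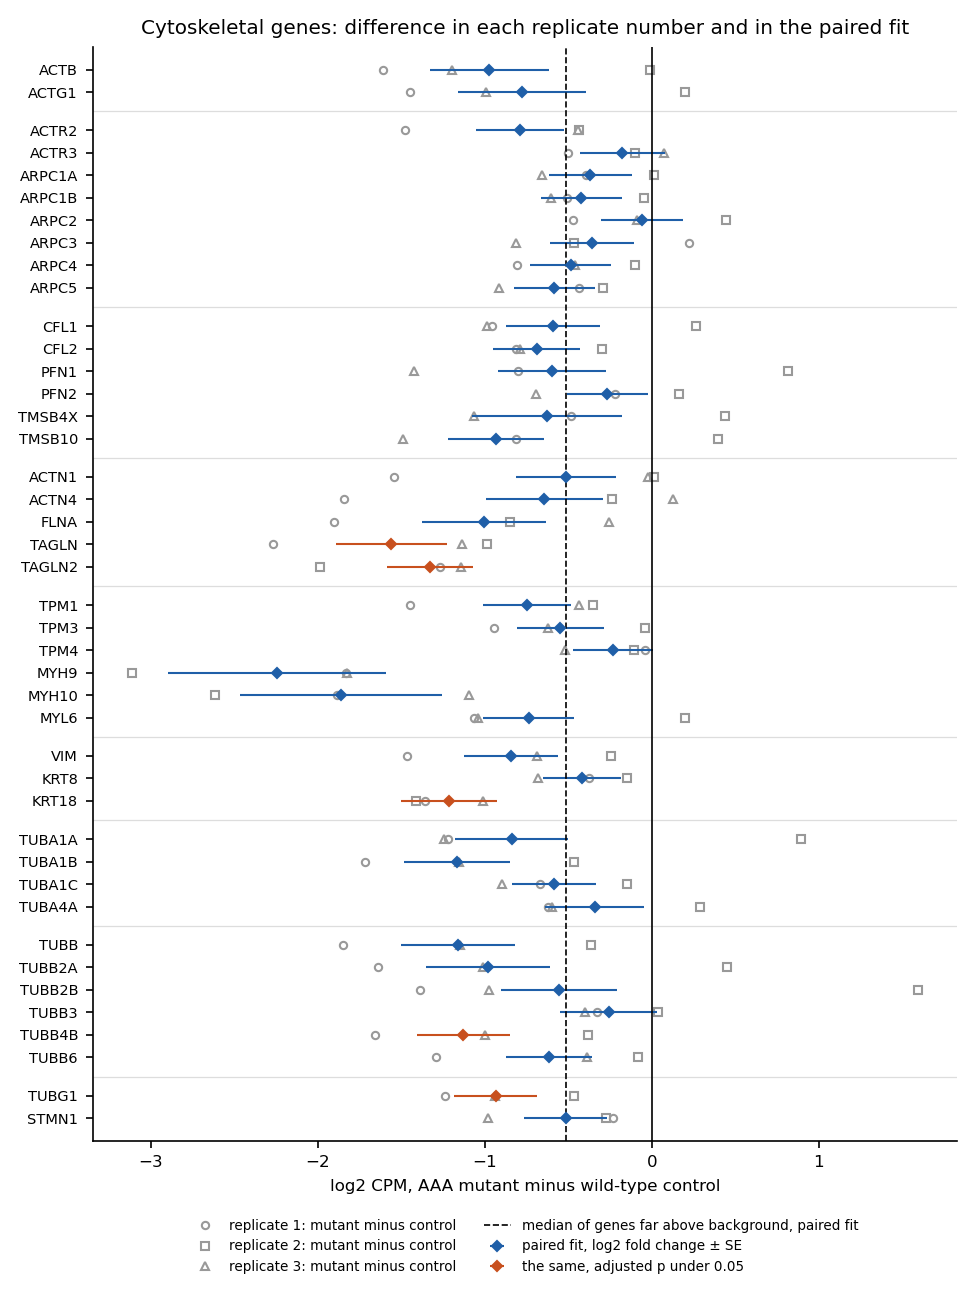
Difference in log2 CPM between mutant and control for each of the 42 genes: grey circle, square and triangle are the libraries of replicate 1, 2 and 3, and the diamond with its bar is the log2 fold change ± SE of the fit blocked by replicate number, orange where the adjusted p was under 0.05. The dashed line marks the median of genes far above background (−0.51). MYH9 and MYH10 lie farthest to the left with the longest bars, and the squares of many genes sit near or above 0.

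The myosin II heavy chains held the most cytoskeletal counts and had the lowest log2 fold changes of the 42 genes, though neither was called by edgeR. MYH9 and MYH10 encode the heavy chains of non-muscle myosin IIA and IIB, the motors that contract actin bundles. MYH9 (ENSG00000100345, chromosome 22, 36281277 to 36388067 on GRCh38) had 9593, 546 and 1091 CPM in control replicates 1, 2 and 3 and 2698, 63.0 and 308 CPM in mutant replicates 1, 2 and 3. Each mutant library was below the control library of its number, but control replicate 1 was far above the other 5 and the group ranges overlapped. The pair differences of MYH9 were −1.83, −3.11 and −1.83. Its log2 fold change was −1.87 ± 1.51 without the block (SE; edgeR adjusted p = 1) and −2.24 ± 0.65 with it (adjusted p = 0.0772). DESeq2 with the block gave −2.20 ± 0.28 and an adjusted p of 9.26e-12, in a fit that called 3.33% of the genes with an adjusted p lower and 9 of the 35 members that had one. Without control replicate 1 the unpaired value of MYH9 was 0.28.

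MYH10, described because of its values and not by the naming rule, had a similar pattern at 6847, 615 and 1227 CPM in control and 1858, 100.4 and 576 CPM in mutant replicates 1, 2 and 3. The mutant library was again the lower one of each number. Its pair differences were −1.88, −2.61 and −1.09, and its log2 fold change with the block was −1.86 ± 0.60 (edgeR adjusted p = 0.135). The DESeq2 fit with the block called it, with an adjusted p of 2.49e-08. By count, MYH9 ranked 2, 28 and 20 among protein-coding genes in control replicates 1, 2 and 3 and 6, 1833 and 529 in the mutant. MYH10 ranked 4, 22 and 16 in the control and 10, 902 and 116 in the mutant. Ordered from the lowest log2 fold change with the block, MYH9 stood at place 15 and MYH10 at place 44 of the 4391 tested genes far above background.

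Besides TAGLN2 and KRT18, the heavy chains were the only members with a pair 2 difference below −1. In control replicate 2, MYH9 had 8144 counts, 16.0 times background, and MYH10 had 12.3 times background, where the median member had 1.85. In mutant replicate 2, MYH9 had 273 counts, 1.92 times background, and MYH10 2.09 times. Together the heavy chains held 76.1% (95% Wilson interval 75.9 to 76.2), 65.9% (65.4 to 66.5) and 33.3% (33.1 to 33.5) of all cytoskeletal counts in control replicates 1, 2 and 3. In mutant replicates 1, 2 and 3 they held 70.2% (69.8 to 70.5), 22.6% (21.1 to 24.1) and 24.6% (24.4 to 24.8). The mutant share was lower in every pair, and the intervals cover counting error only. MYH9 exceeded MYH10 in both replicate 1 libraries, at 1.401 and 1.452 times its CPM, and lay below it in the other 4, at 0.534 to 0.889 times.

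The remaining genes of this group, which stabilise filaments or serve myosin, differed less. MYL6, the essential light chain of myosin II, had a log2 fold change of −0.74 ± 0.27 with the block (edgeR adjusted p = 0.217), and the tropomyosins TPM1, TPM3 and TPM4 had −0.75, −0.55 and −0.23. Pair 2 went the other way for MYL6 at 0.20. None of the 6 genes of this group was called, 6 of 6 were negative, and 5 were lower in all 3 pairs.

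The actins themselves were lower in the mutant in pairs 1 and 3. In pair 2 ACTB differed by −0.0099 and ACTG1 was higher, and there ACTB lay at 2.29 and 2.36 times background and ACTG1 at 6.54 and 7.79 times. None of these differences passed edgeR's test. ACTB, the beta actin gene (ENSG00000075624, chromosome 7, 5527147 to 5563784), had 587, 26.7 and 415 CPM in control and 193, 26.6 and 181 CPM in mutant replicates 1, 2 and 3. The replicate 2 libraries were far below the rest in both groups, so the ranges overlapped. Its log2 fold change with the block was −0.97 ± 0.36 (edgeR adjusted p = 0.218), and DESeq2 with the block called it with an adjusted p of 0.0345. ACTG1, the gamma actin gene (ENSG00000184009, chromosome 17, 81509971 to 81523847), had 734, 28.95 and 586 CPM in control and 269.5, 33.25 and 294 CPM in mutant replicates 1, 2 and 3, with pair differences of −1.445, 0.20 and −0.996. Its value with the block was −0.78 ± 0.38 (edgeR adjusted p = 0.498). The ratio of ACTB to ACTG1 in CPM was 0.801, 0.924 and 0.709 in control and 0.715, 0.799 and 0.615 in mutant replicates 1, 2 and 3. The log2 difference of this ratio was −0.16, −0.21 and −0.20 in the 3 pairs, and the ranges of the groups overlapped. The 2 genes share 91.2% of their coding sequence.

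**Figure D3:**
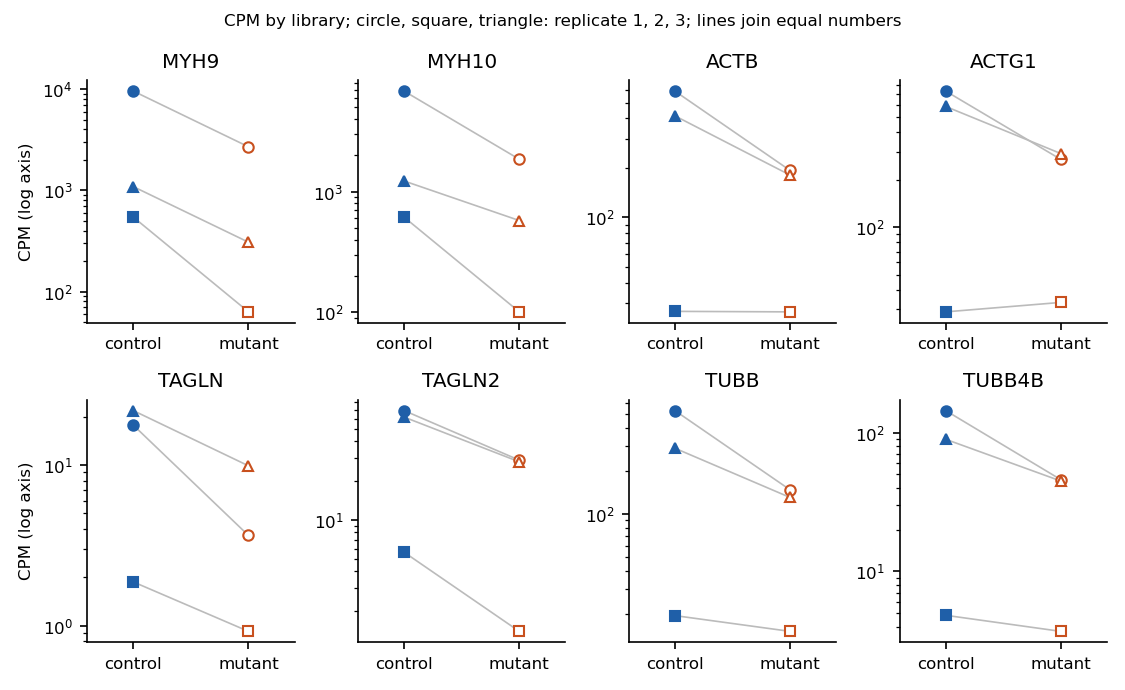
CPM (log axis) of 8 genes in each library, control on the left and mutant on the right; circle, square and triangle are replicates 1, 2 and 3 and grey lines join equal numbers. Lines for MYH9, MYH10, TAGLN and TAGLN2 go down in all 3 pairs, while those of ACTB and ACTG1 are flat or slightly up in replicate 2.

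Among the cross-linkers and bundlers, both transgelins fell in the mutant in the fit with the block. Transgelins are small proteins of the calponin family that bind and bundle actin filaments. TAGLN2 (ENSG00000158710, chromosome 1, 159918107 to 159925732) had 69.1, 5.63 and 61.6 CPM in control and 28.7, 1.385 and 27.9 CPM in mutant replicates 1, 2 and 3. The mutant library was the lower one in each pair, with differences of −1.27, −1.99 and −1.14. It fell by 1.33 ± 0.26 (SE; edgeR adjusted p = 0.00374), and it overlaps no other annotated gene. In pair 2 this rested on 84 counts against 6, and the 6 counts were 0.591 times background.

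TAGLN (ENSG00000149591, chromosome 11, 117199321 to 117204782) had 17.7, 1.88 and 21.8 CPM in control and 3.65, 0.924 and 9.88 CPM in mutant replicates 1, 2 and 3. Again each mutant library was the lower of its pair, and it fell by 1.56 ± 0.33 (SE; edgeR adjusted p = 0.00849). TAGLN was not far above background on average and overlaps PCSK7 on the opposite strand. In pair 2 it had 28 against 4 counts, at 1.08 times background in control and 0.550 times in mutant. Its pair 2 direction therefore compares values at background. Leaving out pairs 1, 2 or 3 moved the adjusted p of TAGLN2 to 0.107, 0.196 and 0.313 and that of TAGLN to 0.787, 0.00168 and 0.494, so TAGLN without pair 2 was the only member call left with any pair removed.

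FLNA, filamin A, which links actin filaments into networks, had 823, 31.6 and 259 CPM in control and 220.1, 17.6 and 217 CPM in mutant replicates 1, 2 and 3. The difference was large in pair 1, at −1.90, and small in pair 3, at −0.26. With the block its log2 fold change was −1.005 ± 0.37 (edgeR adjusted p = 0.216), and DESeq2 with the block gave an adjusted p of 0.0217. The alpha-actinins ACTN1 and ACTN4 showed the same contrast between pairs, with −1.54 and −1.84 in pair 1 and −0.02 and 0.12 in pair 3. Of the 5 cross-linkers 2 were called and 3 were lower in all 3 pairs.

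The Arp2/3 complex, which nucleates branches on existing filaments, had the median nearest to 0 among the groups of the actin side. None of its 8 genes was called, and their median log2 fold change with the block was −0.396. ACTR2, which encodes the Arp2 subunit, had 92.5, 26.2 and 104.3 CPM in control and 33.15, 19.4 and 76.8 CPM in mutant replicates 1, 2 and 3, with −0.79 ± 0.26 (edgeR adjusted p = 0.154). ACTR3, which encodes Arp3, had 66.95, 35.65 and 105.1 CPM in control and 47.3, 33.25 and 110.3 CPM in mutant replicates 1, 2 and 3. Its pair differences of −0.50, −0.10 and 0.07 straddled 0, and its value with the block was −0.18 ± 0.25 (edgeR adjusted p = 0.964). ARPC2 had the value nearest to 0 of all 42 genes, at −0.06 ± 0.25. Only 3 of the 8 genes were far above background, and 4 were lower in all 3 pairs. ARPC1A and ARPC1B shared 76.0% and 72.0% of their 50-base stretches with a readthrough gene that spans both, so their counts are uncertain.

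The genes that bind actin monomers or sever filaments split by pair. In pairs 1 and 3 all 6 were lower in the mutant, and in pair 2 only CFL2, a cofilin that severs filaments, was. PFN1, profilin 1, which feeds monomers to growing ends, had 92.15, 5.76 and 267 CPM in control and 52.9, 10.2 and 99.5 CPM in mutant replicates 1, 2 and 3. Its pair differences were −0.80, 0.81 and −1.42, and its value with the block was −0.60 ± 0.32 (edgeR adjusted p = 0.585). TMSB10, thymosin beta 10, which holds monomers in reserve, had 36.4, 1.74 and 118.9 CPM in control and 20.7, 2.31 and 42.3 CPM in mutant replicates 1, 2 and 3. In pair 2 it had 26 counts against 10. Its value with the block was −0.93 ± 0.29 (edgeR adjusted p = 0.107). These short mRNAs reached the highest multiples of background on the actin side in control replicate 3, at 2011 for TMSB10 and 1390 for PFN1.

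Of the 3 intermediate filament genes 1 was called, and all 3 were lower in each pair. KRT18, a keratin of simple epithelia (ENSG00000111057, chromosome 12, 52948871 to 52952901), had 17.0, 3.75 and 24.9 CPM in control and 6.61, 1.385 and 12.35 CPM in mutant replicates 1, 2 and 3. With the block it fell by 1.21 ± 0.29 (SE; edgeR adjusted p = 0.0219), and its pair differences were −1.36, −1.41 and −1.01. In pair 2 it had 56 counts against 6, at 2.92 times background in control and 1.12 times in mutant. Its span overlaps that of KRT8 at one end on the opposite strand, so reads from the overlap cannot be told apart if strand was not used. KRT8, its usual partner, was not far above background and had −0.42 ± 0.23 (edgeR adjusted p = 0.620). In pair 2 KRT8 stood at 1.11 times background in control and 1.04 times in mutant. VIM, vimentin, the filament protein of mesenchymal cells and of HEK cells in culture, had 165, 12.1 and 131 CPM in control and 59.9, 10.2 and 81.6 CPM in mutant replicates 1, 2 and 3. Its value with the block was −0.84 ± 0.28 (edgeR adjusted p = 0.152).

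The tubulin-side genes ranged from −1.165 to −0.26 with the block, against −2.24 to −0.06 on the actin side. All 12 were lower in the mutant in pairs 1 and 3, and 7 were in pair 2. TUBB4B, a broadly expressed beta tubulin (ENSG00000188229, chromosome 9, 137241213 to 137243707), had 144.4, 4.83 and 89.6 CPM in control and 45.8, 3.69 and 44.8 CPM in mutant replicates 1, 2 and 3. It fell by 1.13 ± 0.28 (SE; edgeR adjusted p = 0.0277), with pair differences of −1.656, −0.381 and −1.0, and DESeq2 with the block called it too (adjusted p = 0.00831). TUBB4B overlaps FAM166A on the opposite strand, and its pair 2 counts were 72 against 16.

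TUBB, the main beta tubulin of dividing cells (ENSG00000196230, chromosome 6, 30720201 to 30725426), had 531, 19.4 and 289 CPM in control and 148, 15.0 and 130.5 CPM in mutant replicates 1, 2 and 3. Its value with the block was −1.16 ± 0.34 (edgeR adjusted p = 0.0798), so it did not pass although its estimate was as low as that of TUBB4B. DESeq2 with the block gave TUBB an adjusted p of 0.00276. The other beta tubulins, TUBB2A, TUBB2B, TUBB3 and TUBB6, ranged from −0.98 to −0.26 with the block and were not far above background. TUBB2B went from 1.81 to 5.54 CPM in pair 2, which was 27 counts against 24 in libraries of unequal depth.

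TUBA1B, the main alpha tubulin of dividing cells (ENSG00000123416, chromosome 12, 49127782 to 49131397), had 261, 12.8 and 331 CPM in control and 79.3, 9.24 and 149 CPM in mutant replicates 1, 2 and 3. Its value with the block was −1.16 ± 0.32 (edgeR adjusted p = 0.0553), and DESeq2 with the block called it with an adjusted p of 0.00156. TUBA1A, its near copy shown above, and TUBA1C and TUBA4A had −0.84, −0.58 and −0.34. TUBA1A and TUBA1C overlap each other on opposite strands. The ratio of TUBB to TUBA1B in CPM followed the replicate number, at 2.03 and 1.86 in replicate 1, 1.51 and 1.63 in replicate 2 and 0.874 and 0.876 in replicate 3, control first.

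Gamma tubulin, which seeds microtubules, fell with the block as well. TUBG1 (ENSG00000131462, chromosome 17, 42609676 to 42615234) had 64.0, 8.31 and 76.2 CPM in control and 27.1, 6.004 and 39.7 CPM in mutant replicates 1, 2 and 3. It fell by 0.93 ± 0.25 (SE; edgeR adjusted p = 0.0477), and DESeq2 with the block gave an adjusted p of 0.0312. TUBG1 shared 29.9% of its 50-base stretches with other genes, nearly all of them with its copy TUBG2, and overlaps RETREG3. STMN1, stathmin, which binds free tubulin dimers, had 36.9, 17.3 and 107.3 CPM in control and 31.3, 14.3 and 54.3 CPM in mutant replicates 1, 2 and 3. Its value with the block was −0.52 ± 0.25 (edgeR adjusted p = 0.471). Without pair 1, 2 or 3 no call of KRT18, TUBB4B or TUBG1 remained, with adjusted p from 0.0853 to 1.

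Both the actin and the tubulin side had a negative median. With the block the median log2 fold change was −0.63 over the 27 actin-side genes and −0.73 over the 12 tubulin-side genes. Factors from genes far above background moved these medians to −0.098 and −0.145. Each side had 2 called genes, where 1.4% of all tested genes and 8.49% of those far above background were called lower. The pair medians were −0.94, −0.10 and −0.79 on the actin side and −1.27, −0.12 and −0.98 on the tubulin side. Over all tested genes far above background they were −0.82, 0 and −0.64. The tubulin median was the lower one in each pair, with tubulin minus actin differences of −0.324, −0.0157 and −0.189 (SD over pairs 0.155). Restricted to genes far above background, the medians were −0.71 over 16 actin-side and −1.03 over 6 tubulin-side genes. All tested genes far above background had a median of −0.51. The difference between the medians had no test, since the genes were chosen by name and are not replicates.

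Summed levels carried the same picture, with the myosin heavy chains set apart. The 25 actin-side genes other than MYH9 and MYH10 summed to 3689, 436 and 3347 CPM in control and 1398, 415 and 2046 CPM in mutant replicates 1, 2 and 3. The 12 tubulin-side genes summed to 1267, 129 and 1120 CPM in control and 448, 118 and 554 CPM in mutant replicates 1, 2 and 3. The ratio of these sums, actin over tubulin, was 2.91, 3.38 and 2.99 in control and 3.12, 3.52 and 3.69 in mutant replicates 1, 2 and 3. It was higher in the mutant in each pair, by 0.10, 0.06 and 0.30 on the log2 scale, and the ranges of the groups overlapped. MYH9 and MYH10 together had log2 differences of −1.85, −2.83 and −1.39 in the 3 pairs, where the other actin-side genes had −1.399, −0.07 and −0.71 and the tubulin side −1.50, −0.13 and −1.02.

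**Figure D4:**
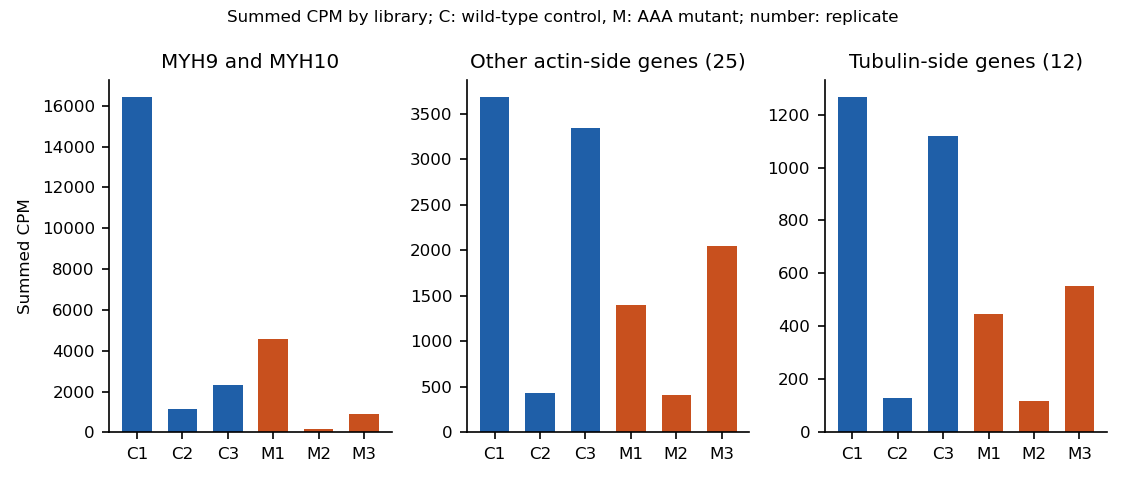
Summed CPM per library for MYH9 and MYH10, for the 25 other actin-side genes and for the 12 tubulin-side genes, each panel with its own axis from 0; blue bars are the 3 control (C) and orange bars the 3 mutant (M) libraries, numbered by replicate. Mutant replicate 2 is lowest in each panel, and control replicate 1 stands out for the myosin heavy chains.

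Levels can be compared between genes only per length, so the CPM above background was divided by the exon length. In control replicate 1 the order began with MYH9 at 1062, MYH10 at 756, ACTG1 at 244, ACTB at 165 and TUBB at 158 CPM per kb of exon. In control replicate 3 it began with TMSB10 at 239.5, ACTG1 at 195, MYH10 at 135, PFN1 at 134, MYH9 at 120.4 and ACTB at 117. In mutant replicate 3 it began with ACTG1 at 97.9, TMSB10 at 85.15 and MYH10 at 63.1, with MYH9 at 33.6. In control replicate 2 the heavy chains also led, at 62.7 for MYH10 and 56.8 for MYH9 against 8.19 for ACTG1, and in mutant replicate 1 at 297 for MYH9 and 202 for MYH10 against 89.0 for ACTG1. In mutant replicate 2 ACTG1 led at 9.68, with MYH10 at 5.80. The heavy chains thus led in 3 of the 6 libraries, and in neither of the replicate 3 libraries, which are the deepest.

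Other genes of the same pathways were read from 7 lists with 93 genes, all tested. With the block 3 of them were called lower, which is 3.23% beside 1.4% of all tested genes, and none was called higher. The 3 lay far above background, where 8.49% of tested genes were called lower. That far above lay 1 gene of actin turnover, 5 of focal adhesion and 3 other intermediate filament genes. In the lists without a call it was 2 actin nucleators, 2 microtubule-associated proteins and 4 genes of tubulin folding. The 3.23% covers all 93 genes and so does not compare with the 8.49%. Without the block no gene of these lists was called. The median log2 fold change of the 93 genes with the block was −0.20. WDR1, which helps cofilin take filaments apart, fell by 1.73 ± 0.31 (SE; edgeR adjusted p = 0.0014) and was 1 of 15 genes of actin turnover. ZYX, zyxin of focal adhesions, fell by 0.94 ± 0.24 (adjusted p = 0.0388) and was 1 of 15 genes of focal adhesion and the serum response. LMNB2, a nuclear lamin, fell by 1.17 ± 0.31 (adjusted p = 0.04998) and was 1 of 12 other intermediate filament genes. All 3 were lower in each pair. None was called among 15 actin nucleators and their activators (median −0.06), 15 microtubule-associated proteins (median −0.04), 10 other tubulins (median 0.003, none far above background) or 11 genes of tubulin folding and the gamma tubulin ring (median −0.44).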

How the data were processed

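The authors deposited unnormalized whole-number counts for 60671 gene IDs in 6 columns. The submitters' processing notes name STAR 2.7.6a, featureCounts and FastQC, with no genome build, annotation, strand or multi-mapping setting given in the sources used here. Symbols matched 60401 IDs. Spans, exon lengths, overlaps and transcript sequences came from GENCODE 29 on GRCh38, which held 58453 IDs.

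Counts were fitted with edgeR 4.0.16 under R 4.3.3 (filterByExpr, TMM, quasi-likelihood F test, Benjamini-Hochberg over all tested genes), without a replicate block. CPM use TMM-scaled library sizes, and log2 CPM a prior count of 1. The SE is the log2 fold change divided by the square root of F. DESeq2 1.42.0 and limma 3.58.1 were alternatives. Across genes, deviations from the group mean correlated at r = 0.414, 0.763 and 0.901 between libraries numbered 1, 2 and 3, and each library matched its own number best. The block rests on this check, since the labels give no pairing. Background also followed the replicate number, so the check cannot tell paired preparation from a shared background level. In the Results, log2 fold changes of single genes come from the fit with the block unless stated otherwise.

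Background intervals are 95% exact Poisson intervals and shares have Wilson intervals, both covering counting error only. Members, lists and the naming rule were chosen with earlier results of these data known. In each role the member with the most counts and the one with the smallest p in the blocked fit were named, plus every called member.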

Additional observations from a re-analysis of the deposited data

How the results depend on the processing

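Without the replicate block no gene and no member was called under any of the alternatives run. With the replicate block edgeR called 469 genes and 5 members, with upper quartile factors 312 and 2, without the filter on low counts 231 and 2, and with factors from genes far above background 8 and 0. DESeq2 with the block called 530 genes and 9 of the 35 members with an adjusted p, of which TAGLN2, TUBB4B and TUBG1 were shared with the 5 and TAGLN and KRT18 had no adjusted p. Both calls that held with upper quartile factors and without the filter were TAGLN and TAGLN2. With background subtracted and the block no member was called. Leaving out 1 library or 1 pair gave 0 to 259 genes (37 without pair 1, 259 without pair 2 and 0 without pair 3, with the block) and 0 to 1 members. The unpaired actin median of −0.77 became −0.22 with factors from genes far above background (−0.098 with the block), and ran from −1.45 to 0.25 with 1 library or pair left out. The unpaired tubulin median of −0.95 became −0.14 (−0.145 with the block) and ran from −1.47 to −0.41. The tubulin minus actin difference of −0.18 became 0.074 with those factors and ran from −0.66 to 0.19. Of 340 values of named members, 12 changed sign. ACTR3 was 0.023 with upper quartile factors, 0.18 with far-gene factors (0.30 with the block) and 0.035 without the filter, and ran from −0.75 to 0.50 with 1 library left out. The other sign changes came with a library left out: PFN1 ran from −1.89 to 0.35, TMSB10 from −2.11 to 0.41, STMN1 from −1.19 to 0.49, FLNA from −1.84 to 0.0309 and MYH9 from −4.30 to 0.28. The first 3 turned without control replicate 3 and the last 2 without control replicate 1. The cause of these changes was not tested. A group left with 2 libraries is assumed to vary like the other. Counts near background in replicate 2 limit every pair 2 value.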

Other observations

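The annotated pseudogene copies of KRT18, KRT8, ACTG1 and ACTB had counts between 0.512 and 1.81 times background in replicates 1 and 2. The 67 annotated copies of KRT18 together had 180%, 963% and 101% of the counts of KRT18 in control replicates 1, 2 and 3 and 533%, 2750% and 247% in mutant replicates 1, 2 and 3. Over their summed span these copies stood at 1.07, 0.833 and 3.28 times background in control and 1.11, 0.911 and 4.72 times in mutant replicates 1, 2 and 3. The 51 copies of KRT8 had between 70.2% and 163% of the counts of KRT8, at 0.833 to 7.22 times background. For ACTG1, 21 copies had 2.98% to 7.06% of its counts in replicates 1 and 3 and 76.6% and 50.7% in control and mutant replicate 2, where background is highest. For ACTB, 12 copies had 0.343% to 1.14% in replicates 1 and 3. Whether reads of the genes were assigned to these copies was not tested.

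Counts were more often even than odd. Among gene IDs with 10 to 99 counts, 71.9%, 69.4% and 63.0% had an even count in control replicates 1, 2 and 3 and 77.6%, 82.7% and 59.4% in mutant replicates 1, 2 and 3. Of the 42 cytoskeletal genes, 32 had an even count in mutant replicate 2 and 22 in mutant replicate 3. Whether both mates of a read pair were counted separately was not tested, and counting intervals would then be too narrow.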
